A study of Homo sapiens with 9 samples.

Results

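A set of 10 amino acid transporter genes was followed through RNA sequencing of SKMEL28 cells: SLC7A5, SLC3A2, SLC1A4, SLC1A5, SLC38A1, SLC38A2, SLC7A1, SLC7A6, SLC36A1 and SLC6A9. They were chosen by gene symbol, and the 10 rows are 10 of the 48162 genes in the deposited tables. SKMEL28 is a human melanoma cell line with mutant BRAF. It was transduced with a lentivirus carrying a short hairpin RNA against GFP (shCont), against p16 (shp16), or with hairpins against p16 and ATR (shp16+shATR), and all groups were selected with 1 µg/ml puromycin for 3 days. There were 3 libraries per group, 9 in all. Nothing in the sources used here says that they came from separate cultures or infections, so the p-values below measure only the spread between these libraries, which may be technical. The paper describes its graph of LSS mRNA as 1 experiment with 3 technical replicates. It does not state whether that graph comes from these libraries. Which ATR hairpin was used is not given in the sources used here.

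Amino acids cross the plasma membrane through families of solute carriers that differ in substrate and in driving force. SLC7A5 (LAT1) exchanges large neutral amino acids such as leucine and works only when bound to the SLC3A2 glycoprotein (4F2hc, CD98), and SLC1A5, SLC38A1 and SLC38A2 bring in glutamine and other small neutral amino acids that such exchangers use as counter-substrate. Leucine and arginine in the cytosol and lysosome are among the signals that activate mTORC1, and ATF4, the transcription factor of the amino acid response, is known to act on several of these transporter genes. Melanoma cells are known for high LAT1 expression.

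The libraries held between 17314662 and 23588174 counts. Levels are given below as FPKM (fragments scaled by gene length and library size), which allow genes to be compared, and differences as log2 fold changes from edgeR's quasi-likelihood test on the counts, with Benjamini-Hochberg adjustment over 15776 genes and a threshold of 0.05. In shCont replicate 1, the median gene was 0.398 away on the log2 scale from the mean of the other 2 control libraries. The other libraries were at 0.0930 to 0.255 from the rest of their groups. In shp16, replicate 1 was at 0.220 and the other libraries were at 0.138 and 0.139. Values without shCont replicate 1 are therefore also given where they change a call or move a difference by more than 1.5 times. CDKN2A, which encodes p16, was at 97.7 ± 20.9 FPKM in shCont and 70.6 ± 11.9 in shp16 (mean ± SD, n = 3 each), with a log2 fold change of −0.48 that did not pass the test (adjusted p = 0.0723). Control replicate 1 had the highest CDKN2A level (121 FPKM, against 91.0 and 81.0), and without it the difference was −0.26 (adjusted p = 0.0681). In shp16+shATR, CDKN2A was at 66.3 ± 4.33 FPKM. It was called lower there than in shCont (−0.57), and also without control replicate 1. ATR was at 10.5 ± 0.156 FPKM in shp16 and 4.88 ± 0.0372 in shp16+shATR and fell, with a log2 fold change of −1.12 (adjusted p = 0.0128). In shCont, ATR was at 5.34 FPKM in replicate 1, near the level of the ATR knockdown, and at 11.8 in both other libraries. The 8 melanocyte markers examined, among them MITF, PMEL, MLANA and SOX10, were present in every library, with a summed level of 13386 to 15002 CPM (counts scaled to library size, here with TMM normalization) in shCont, 7769 to 13015 in shp16 and 10941 to 13044 in shp16+shATR. PMEL was the largest part (a mean of 7548 CPM). S100B (log2 fold change −0.68, adjusted p = 0.0130) and TYRP1 (−0.43, adjusted p = 0.0228) were called lower in shp16 than in shCont. These were 2 of the 8, where 7.59% of all genes were called lower. In shp16+shATR against shp16, TYRP1 fell (−0.88, adjusted p = 0.0014) and S100B rose (0.67, adjusted p = 0.0254). Of all genes, 3.49% fell and 2.73% rose there. Without shCont replicate 1, MLANA rose there too (adjusted p = 0.0387). Of 12 markers of other cell types, 11 were in the table and summed to between 33.6 and 51.9 CPM, most of it LUM (a mean of 34.3 CPM). The leucocyte markers PTPRC and CD3E were at 0 in all libraries. The keratinocyte gene KRT5 was at 0 in shCont, at 2.03 to 2.99 CPM in shp16 and at 0.359 to 2.25 CPM in shp16+shATR, and KRT14 was at up to 0.154, 2.09 to 2.96 and 1.13 to 2.77 CPM. Both were called higher in each knockdown group than in shCont, and the fibroblast genes COL1A2 and DCN, at means of 0.484 and 0.527 CPM, were called higher in shp16+shATR than in shCont (adjusted p = 0.0460 and 0.0266; for DCN 0.0574 without shCont replicate 1). Of the 7 markers tested, 2 were called higher in shp16 and 4 in shp16+shATR, where 7.23% and 10.9% of all genes were. Without shCont replicate 1, COL1A1 and COL1A2 were also called higher in shp16 than in shCont (adjusted p = 0.0395 and 0.00308). The remaining control libraries held no counts of these genes. In that setting, 4 of the markers were called higher in shp16 and 5 in shp16+shATR, where 13.4% and 15.9% of all genes were. The part of these markers in the results below was not tested, and in RNA from whole cultures fewer cells of a type and less RNA per cell cannot be told apart.

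The transporters differed widely in abundance. In shCont the order by mean FPKM was SLC3A2 (171), SLC7A5 (130), SLC1A4 (105), SLC1A5 (59.4), SLC38A2 (19.9), SLC7A1 (18.5), SLC38A1 (6.94), SLC36A1 (6.14), SLC7A6 (4.05) and SLC6A9 (0.0278). The libraries overlapped between SLC38A2 and SLC7A1, between SLC38A1 and SLC36A1, and between SLC36A1 and SLC7A6, and the other neighbours in this order did not overlap. In shp16 SLC7A5 (163) stood above SLC3A2 (141), with overlapping libraries, and in shp16+shATR SLC3A2 (137) stood above SLC7A5 (123) without overlap. The summed level of the 10 was 521 ± 17.4 FPKM for shCont, 520.2 ± 11.9 for shp16 and 473 ± 5.35 for shp16+shATR (mean ± SD, n = 3 each), and the 4 most abundant made up 89.3%, 84.6% and 83.6% of it. In shCont this share was 93.4% in replicate 1 and 87.4% and 86.9% in the other libraries. Of the 10, 9 passed the filter on low counts. SLC6A9, the glycine transporter GlyT1, did not, with 0 to 9 counts per library and 0 to 0.14 FPKM. A count of 0, as found for it in shCont replicate 1, allows up to 3 counts. CCDC24, which overlaps SLC6A9 on the other strand over 5029 bases, held 100 to 207 counts, and since no strand setting is given in the sources used here, the few SLC6A9 reads cannot be assigned with certainty.

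**Figure D1:**
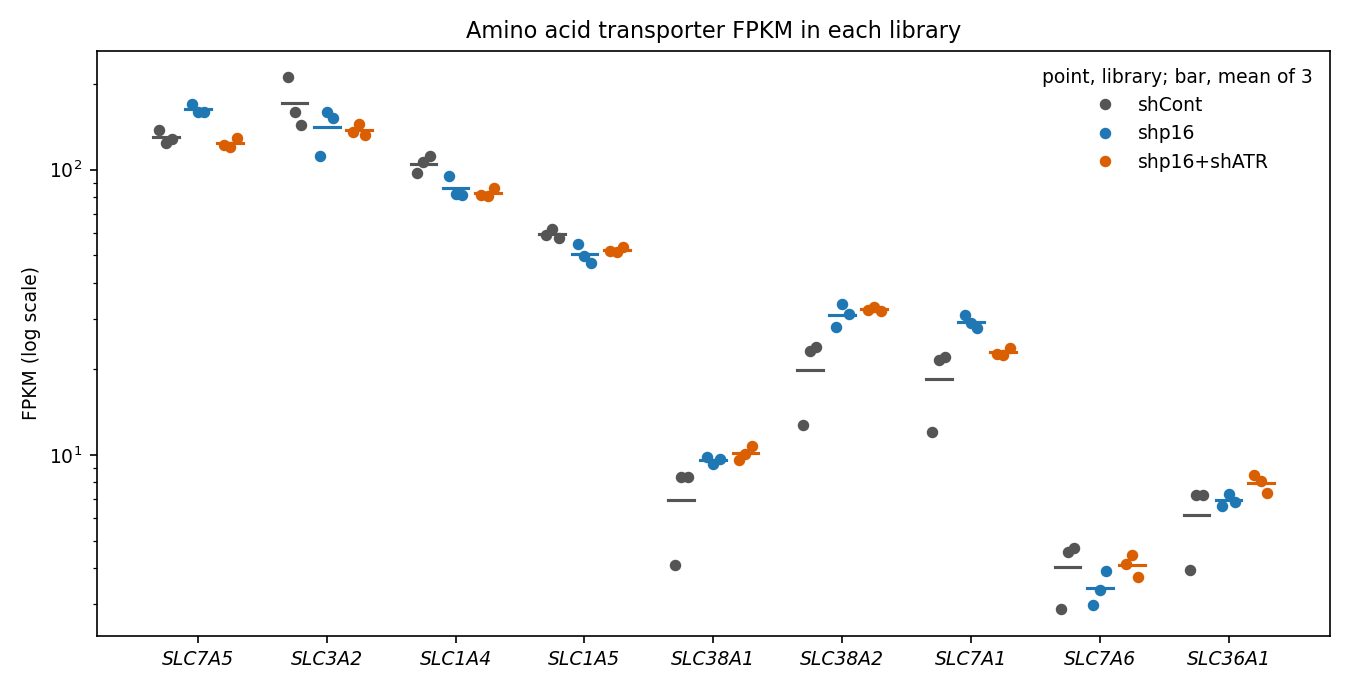
FPKM of 9 transporters (log axis) in each of the 9 libraries; points are libraries, bars are means of the 3 libraries of a group, and SLC6A9, at 0 to 0.14 FPKM, is left out. SLC7A5 and SLC7A1 stand highest in shp16, SLC38A2 is higher in both knockdown groups than in shCont, and 1 control library is the lowest point of SLC38A1, SLC38A2, SLC7A1, SLC7A6 and SLC36A1.

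Promoters were searched for 3 short motifs, since ATF4 and bZIP partners are known to act through the first and 2 members rose after p16 knockdown. The promoters are 300 bases, 250 before and 50 after each annotated start, from RefSeq (GRCh38.p14), and all 10 genes matched with 17 promoters. The core of the C/EBP-ATF response element, TGATGNAA on either strand, was in 5 of these 17 and in 3.62% of all 35116 promoters. The cAMP response element TGACGTCA was in none of the 17 (1.85% of all), and the E-box CACGTG was in 3 of the 17 (7.26% of all). No matches overlapped each other, and a match describes letters only. Each line below is a 30-base window in the direction of the gene, with the matched letters in capitals. The first 5 hold the response element core.
SLC7A1: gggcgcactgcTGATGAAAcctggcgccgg
SLC38A1: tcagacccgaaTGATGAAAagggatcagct
SLC1A5: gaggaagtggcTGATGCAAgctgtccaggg
SLC1A4: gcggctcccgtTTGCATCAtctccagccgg
SLC3A2: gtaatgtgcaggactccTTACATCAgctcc
SLC7A5: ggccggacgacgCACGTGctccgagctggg
SLC36A1: cgctcaagggagCACGTGacctcggcctct
SLC36A1: gggcggtgggatCACGTGatgaggtccgga
The SLC7A1 window lies on the minus strand at chr13:29595663-29595692, with the core starting at base 8 of the transcript. That of SLC38A1 is on the minus strand at chr12:46266502-46266531, with the core starting at −4 from an annotated start. That of SLC1A5 is on the minus strand at chr19:46784893-46784922 (core from −97), and SLC1A5 also had an E-box at −50 from another start. Those of SLC1A4 and SLC3A2 are on the plus strand at chr2:64989381-64989410 and chr11:62881719-62881748, and hold the core read from the opposite strand. The E-boxes are at −130 from the start of SLC7A5 (minus strand, chr16:87869620-87869649) and at −43 and −8 from a start of SLC36A1 (plus strand, chr5:151447548-151447577 and chr5:151447583-151447612). No motif was found in the windows of SLC38A2, SLC7A6 and SLC6A9. The gene positions in the sections that follow are those of the deposited tables, which are on GRCh37.

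Knockdown of p16 was compared with the control first. SLC7A1 and SLC38A2 rose, and no member fell. Of the 9 tested members 2 were called higher, where 7.23% of all genes were called higher, and 0 were called lower, where 7.59% were. The median log2 fold change of the 9 was 0.19, against −0.02 for all genes tested, and the libraries of the 2 groups did not overlap (on the CPM scale) for 5 of the 9, as for 33.6% of all genes. Differences were positive for 5 of the 9 members and negative for 4. Of all 15776 genes tested, 7607 were positive and 8169 negative.

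SLC7A1 (ENSG00000139514, chromosome 13 from 30083547 to 30169825) encodes CAT1, the main importer of arginine and lysine. It was at 11.97, 21.4 and 22.1 FPKM in shCont and at 30.9, 28.9 and 27.8 in shp16. All 3 shp16 libraries lay above all control libraries, and the lowest control was replicate 1. Its log2 fold change was 0.68 (SE, the standard error, 0.18, adjusted p = 0.0267, a 1.6-fold rise). Without shCont replicate 1 it was 0.46 (SE 0.09, adjusted p = 0.00422). The call was lost when any 1 shp16 library was left out (adjusted p 0.0536 to 0.0992) and without shp16+shATR library a (0.0504), and also in a fit of only the 2 groups compared (0.0848) and with limma on log2(FPKM + 1) (0.0603).

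SLC38A2 (ENSG00000134294, chromosome 12 from 46751972 to 46766650) encodes SNAT2, a sodium-coupled importer of glutamine, alanine and other small neutral amino acids that is known to be induced when amino acids are scarce. It was at 12.7, 23.1 and 23.9 FPKM in shCont and at 28.0, 33.8 and 31.1 in shp16. Again the groups did not overlap and control replicate 1 was the lowest. The log2 fold change was 0.65 (SE 0.18, adjusted p = 0.0287, a 1.57-fold rise), and 0.43 without shCont replicate 1 (SE 0.07, adjusted p = 0.00118). This call too was lost without any 1 shp16 library (adjusted p 0.068 to 0.0935) and without shp16+shATR library a (0.0524), in the fit of only these groups (0.0908), with limma (0.075) and with scaling by library size alone (0.0547).

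SLC7A5 (ENSG00000103257, chromosome 16 from 87863629 to 87903094) was at 138, 124 and 128 FPKM in shCont and at 169, 159.1 and 159.4 in shp16. The shp16 libraries all lay above the controls. Its log2 fold change of 0.33 (SE 0.12) did not pass the test with all 9 libraries (adjusted p = 0.0756), and passed it without shCont replicate 1 (0.41, SE 0.09, adjusted p = 0.00836). SLC7A5P1, a pseudogene that can share its reads, was at 14.6 FPKM for shCont, 15.6 for shp16 and 14.3 for shp16+shATR on average, and SLC7A5P2 had no counts.

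SLC38A1 (ENSG00000111371, chromosome 12 from 46576846 to 46663800) encodes SNAT1, a glutamine importer whose gene lies 88171 bases from SLC38A2. It was at 4.12, 8.37 and 8.32 FPKM in shCont and at 9.84, 9.31 and 9.66 in shp16. The groups did not overlap, but the control group held the widest gap, between replicate 1 and the other two. The log2 fold change of 0.49 (SE 0.20) did not pass (adjusted p = 0.126), nor did the value of 0.24 without shCont replicate 1 (adjusted p = 0.0659).

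SLC3A2 (ENSG00000168003, chromosome 11 from 62623518 to 62656352), the shared heavy chain, was at 211, 159 and 143 FPKM in shCont and at 112, 159 and 151 in shp16. The 2 groups overlapped, with replicate 1 at the top of shCont and at the bottom of shp16. The log2 fold change was −0.29 (SE 0.16, adjusted p = 0.270) and −0.07 without shCont replicate 1 (adjusted p = 0.643). With both replicate 1 libraries left out, an alternative chosen after seeing the data, it was 0.04.

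The neutral amino acid exchangers SLC1A4 (ASCT1, for serine and alanine, among others) and SLC1A5 (ASCT2, for glutamine, among others) are the closest relatives among the members. SLC1A4 (ENSG00000115902, chromosome 2 from 65215611 to 65250999) was at 97.0, 106 and 112 FPKM in shCont and at 94.8, 82.0 and 81.3 in shp16. SLC1A5 (ENSG00000105281, chromosome 19 from 47278140 to 47291851) was at 59.0, 61.7 and 57.6 in shCont and at 54.9, 49.7 and 47.2 in shp16. Both had lower means in shp16, with shp16 replicate 1 the closest to the controls. On the CPM scale SLC1A4 missed an overlap narrowly, at 585.1 in shp16 replicate 1 against 585.2 in shCont replicate 1. SLC1A5 did overlap on that scale, although not in FPKM. Their log2 fold changes were −0.27 (SE 0.12, adjusted p = 0.152) and −0.22 (SE 0.11, adjusted p = 0.211). Neither passed without shCont replicate 1 (adjusted p = 0.0631 and 0.166).

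SLC7A6 (ENSG00000103064, chromosome 16 from 68298433 to 68335722), known as y+LAT2, pairs with SLC3A2 and exports cationic against neutral amino acids. It was at 2.88, 4.55 and 4.73 FPKM in shCont and at 2.97, 3.35 and 3.90 in shp16. The groups overlapped through control replicate 1, the lowest of the 6. Its log2 fold change was −0.24 (SE 0.16, adjusted p = 0.362), and SLC7A6 fell when shCont replicate 1 was left out (−0.42, SE 0.10, adjusted p = 0.01). SLC7A6OS overlaps it on the other strand over 17317 bases and held 206 to 316 counts, against 385 to 641 for SLC7A6.

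SLC36A1 (ENSG00000123643, chromosome 5 from 150816607 to 150871942) encodes PAT1, a proton-coupled carrier of small amino acids that is found at the lysosome. It was at 3.95, 7.22 and 7.24 FPKM in shCont and at 6.63, 7.27 and 6.84 in shp16. Apart from control replicate 1 the libraries of both groups fell in the same range. The log2 fold change was 0.19 (SE 0.18, adjusted p = 0.509) and turned to −0.03 without that library.

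Leaving out shCont replicate 1 thus changed the account of these members. SLC7A5, SLC38A2 and SLC7A1 were then called higher and SLC7A6 lower, 3 and 1 of the 9, where 13.4% of all genes were called higher and 12.5% lower, and the median of the 9 moved from 0.19 to −0.03. SLC38A1, SLC38A2, SLC36A1, SLC7A1 and SLC7A6 differed in that library from the mean of the other two controls by −0.93 to −0.59 on the log2 scale and SLC3A2 by 0.58, while SLC1A4 was at −0.08 and SLC1A5 at 0.08.

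Leaving out shp16 replicate 1 as well was an alternative chosen after seeing the data. SLC7A5 (0.33, adjusted p = 0.000228), SLC38A2 (0.46, adjusted p = 1.11e-05) and SLC7A1 (0.37, adjusted p = 0.000106) were then called higher. SLC1A4 (−0.42, adjusted p = 2.43e-05), SLC1A5 (−0.31, adjusted p = 0.000592) and SLC7A6 (−0.36, adjusted p = 0.00908) were called lower. These were 3 and 3 of the 9, where 16.9% of all genes were called higher and 15.8% lower.

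**Figure D2:**
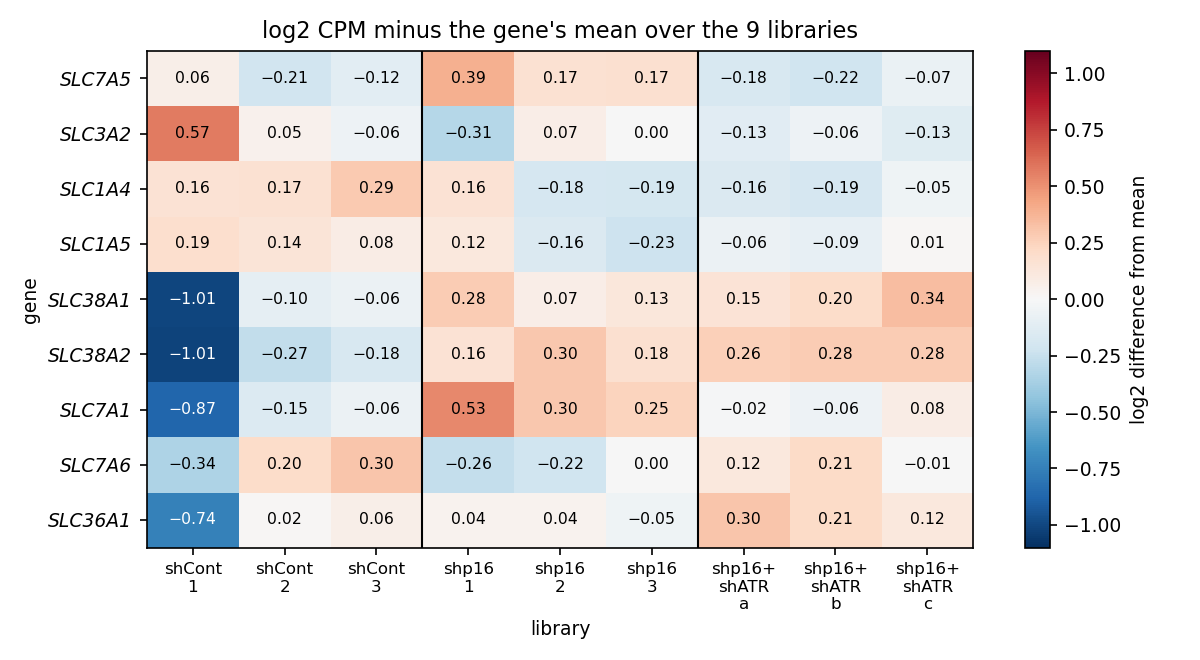
log2 CPM of 9 transporters in each library minus the gene's own mean over the 9 libraries (colour scale from blue, below the mean, to red, above it). The control library in the first column stands apart, at −1.01 for SLC38A1 and SLC38A2 and 0.57 for SLC3A2, and SLC7A5 is above its mean in all shp16 libraries (0.17 to 0.39) and below it in all shp16+shATR libraries.

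Knockdown of ATR in addition to p16 was compared with knockdown of p16 alone. With all 9 libraries no member passed the test: 0 of 9 were called higher and 0 of 9 lower, where 2.73% of all genes were called higher and 3.49% lower. At an unadjusted p under 0.05 there was 1, SLC7A5. DESeq2 and limma each called 1, again SLC7A5, as lower. The members with the most negative differences were SLC7A5 and SLC7A1. The median of the 9 log2 fold changes was 0.04, against 0.00 for all genes tested. The libraries of the 2 groups did not overlap for 3 of the 9 members (SLC7A5, SLC7A1 and SLC36A1), as for 37.7% of all genes.

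SLC7A5 was at 169, 159.1 and 159.4 FPKM in shp16 and at 122, 120 and 129 in shp16+shATR. Every shp16+shATR library was below every shp16 library, and the shp16+shATR libraries overlapped the controls. The log2 fold change was −0.41 (SE 0.12, adjusted p = 0.0611). Without shCont replicate 1, a library of neither group that enters the fit through the filter, the scaling and the shared estimate of spread, SLC7A5 fell (−0.40, SE 0.08, adjusted p = 0.00526), and it also fell in a fit of only these 2 groups (−0.41, adjusted p = 0.00878).

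SLC7A1 was at 30.9, 28.9 and 27.8 FPKM in shp16 and at 22.6, 22.3 and 23.8 in shp16+shATR, again without overlap. Its log2 fold change was −0.36 (SE 0.18, adjusted p = 0.296), and it fell without shCont replicate 1 (−0.36, SE 0.08, adjusted p = 0.01) and in the fit of only these 2 groups (adjusted p = 0.0157). These were the 2 members called lower without shCont replicate 1, where 11.0% of all genes were called lower, and 0 were called higher, where 8.94% were. Without both replicate 1 libraries SLC7A5 (−0.34, adjusted p = 9.83e-05), SLC7A1 (−0.28, adjusted p = 0.000868) and SLC3A2 (−0.15, adjusted p = 0.0404) were called lower and SLC36A1 (0.21, adjusted p = 0.0415) higher, where 14.3% of all genes were called lower and 12.4% higher.

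SLC38A2 was at 32.2, 33.0 and 32.0 FPKM in shp16+shATR, inside the range of the shp16 libraries. SLC38A1 was at 9.57, 10.1 and 10.7, overlapping shp16 as well. Their log2 fold changes were 0.06 (SE 0.18, adjusted p = 0.887) and 0.07 (SE 0.20, adjusted p = 0.895). The intervals of 1 SE around both values included 0. This comparison and the one before it share the shp16 libraries.

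SLC3A2 was at 135, 144 and 132 FPKM in shp16+shATR, SLC1A4 at 81.4, 80.8 and 86.2, and SLC1A5 at 51.7, 51.4 and 53.5. All 3 overlapped shp16. Their log2 fold changes lay between −0.07 and 0.04, with standard errors of 0.11 to 0.16 and adjusted p from 0.820 to 0.935. SLC7A6 was at 4.13, 4.46 and 3.72 (log2 fold change 0.27, SE 0.16, adjusted p = 0.402). SLC36A1 was at 8.51, 8.08 and 7.34, above all shp16 libraries, with a log2 fold change of 0.20 that did not pass (SE 0.18, adjusted p = 0.587).

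Against shCont, the combined knockdown left SLC38A2 as the member that rose with all 9 libraries. Of the 9 members 1 was called higher and 0 lower, where 10.9% and 12.7% of all genes were. The groups did not overlap for 6 of the 9, as for 41.5% of all genes. SLC38A2 had a log2 fold change of 0.72 (SE 0.18, adjusted p = 0.0122), and 0.49 without shCont replicate 1. It kept an adjusted p under 0.05 in all 19 alternatives that refitted it, from 8.76e-07 to 0.0428. SLC7A5, at −0.07 (SE 0.12, adjusted p = 0.695), and SLC7A6, at 0.03, were the members nearest to 0, and both turned sign without shCont replicate 1 (0.00 and −0.15). SLC1A4 was at −0.34 (adjusted p = 0.0612), SLC38A1 at 0.56 (adjusted p = 0.0649), SLC3A2 at −0.32, SLC1A5 at −0.18, SLC7A1 at 0.32 and SLC36A1 at 0.39. Without shCont replicate 1 SLC38A1 was at 0.31, SLC3A2 at −0.11, SLC7A1 at 0.10 and SLC36A1 at 0.17, and SLC1A4 and SLC1A5 moved little (−0.37 and −0.16). Without shCont replicate 1, SLC38A1 and SLC38A2 were called higher and SLC1A4 lower, where 15.9% of all genes were called higher and 17.5% lower. Without both replicate 1 libraries SLC1A5 was also called lower (−0.17, adjusted p = 0.0178), where 21.1% and 23.2% were called higher and lower.

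**Figure D3:**
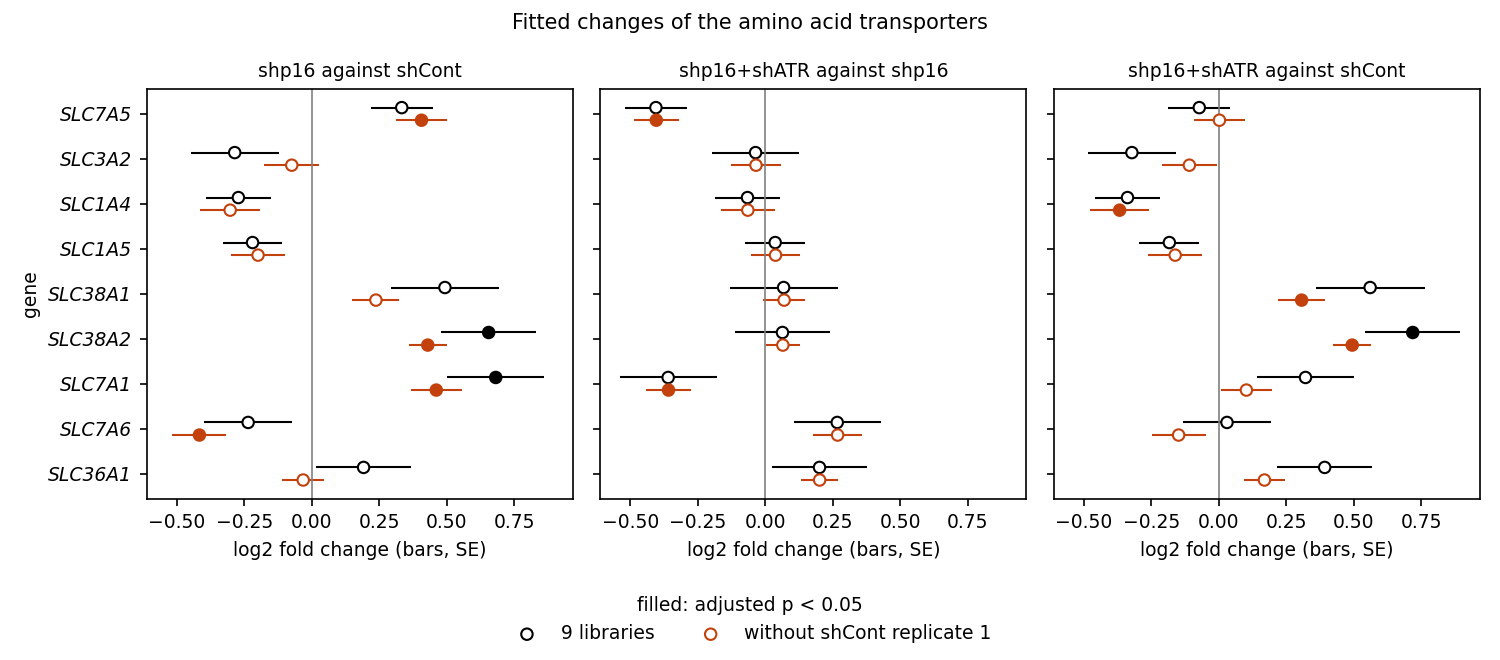
Log2 fold changes with standard errors for 9 transporters in the 3 comparisons, fitted with all 9 libraries (black) or without shCont replicate 1 (orange); filled points have an adjusted p under 0.05. With all libraries SLC38A2 (0.65 and 0.72) and SLC7A1 (0.68) are filled, and without that library SLC7A5 is filled in the first 2 panels (0.41 and −0.40) and lies at 0.00 in the last.

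SLC7A5 needs SLC3A2, so their levels were set against each other. The ratio of SLC7A5 to SLC3A2 FPKM was 0.655, 0.778 and 0.896 in shCont, 1.52, 0.999 and 1.05 in shp16, and 0.903, 0.832 and 0.973 in shp16+shATR. All shp16 libraries lay above all others, and shp16 replicate 1 was far above the others of its group. The group means were 0.777 ± 0.121, 1.19 ± 0.285 and 0.903 ± 0.0701 (mean ± SD, n = 3 each). On the log2 scale the difference of shp16 from shCont was 0.60 and that of shp16+shATR from shp16 was −0.38, each with p = 0.1 in a two-sided exact permutation test, which is the smallest p that 3 libraries against 3 allow. The difference of shp16+shATR from shCont was 0.23 (exact permutation p = 0.2). The adjusted values over these 3 comparisons were 0.15, 0.15 and 0.2. Without shp16 replicate 1 the mean of shp16 was 1.03.

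SLC3A2 also binds other light chains. SLC7A8 (LAT2, an exchanger of neutral amino acids with a broader range than LAT1) was at 120, 123 and 130 FPKM in shCont, 101, 95.1 and 93.9 in shp16, and 122, 119 and 126 in shp16+shATR. Its level was near that of SLC7A5 in shCont and shp16+shATR and below it in shp16, where the libraries lay below all others. SLC7A8 fell in shp16 (log2 fold change −0.35, SE 0.11, adjusted p = 0.0453) and was 0.33 higher on the log2 scale in shp16+shATR than in shp16, which did not pass (SE 0.11, adjusted p = 0.0928) and passed without shCont replicate 1 (adjusted p = 0.0141). SLC7A11, the cystine carrier xCT, was at 2.29 to 4.74 FPKM in shCont, 4.75 to 5.06 in shp16 and 3.44 to 3.80 in shp16+shATR. In shp16+shATR against shp16 its log2 fold change of −0.47 did not pass (SE 0.20, adjusted p = 0.222). It passed without shCont replicate 1 (adjusted p = 0.000534). In shp16 against shCont it was at 0.36 (adjusted p = 0.265), and at 0.10 without that library. For shp16+shATR against shCont these values were −0.11 and −0.37, the second called lower (adjusted p = 0.00245). SLC7A7 was below 0.452 FPKM and SLC7A10 had no counts. The 6 light chains summed to 262 ± 5.87 FPKM for shCont, 268 ± 9.06 for shp16 and 254 ± 7.33 for shp16+shATR (mean ± SD, n = 3 each), and SLC7A5 made up 49.5% ± 2.50, 60.7% ± 0.159 and 48.6% ± 0.394 of the sum. Unlike the ratio to SLC3A2, this share was even among the shp16 libraries, from 60.5% to 60.8%, and did not exceed 52.4% in any other library. Such ratios within a library show that the genes changed unequally, and not which of them changed.

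**Figure D4:**
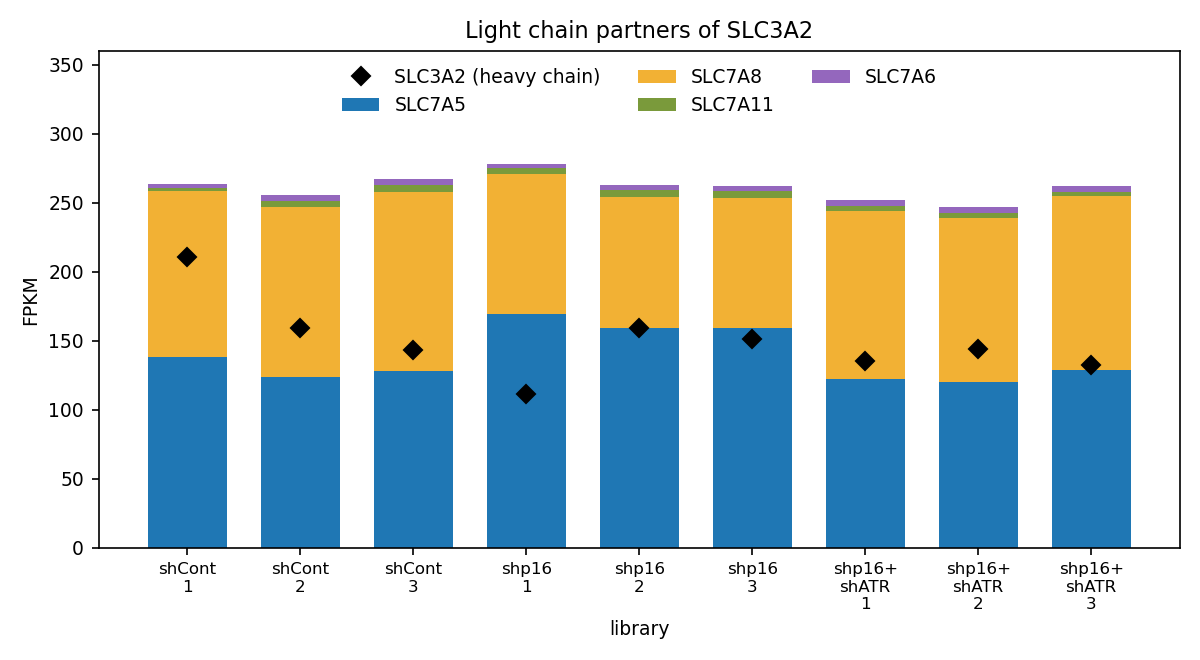
FPKM of the 4 more abundant light chains that pair with SLC3A2, stacked for each library (SLC7A5, SLC7A8, SLC7A11 and SLC7A6), with SLC3A2 itself as black diamonds. The SLC7A5 part is 159.1 to 169 FPKM in shp16 and 120 to 138 elsewhere, the SLC7A8 part is 93.9 to 101 in shp16 and 119 to 130 elsewhere, and the height of the stack is 247 to 278 throughout.

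Likeness of pattern over the 9 libraries was measured as the root mean square difference of log2 CPM, each gene centred on its own mean. Nearest to SLC7A5 were KIF2C (0.0504), CDC42EP4 (0.0507) and MCM7 (0.0512), among 8234 genes with a mean of at least 5 CPM and enough variation between groups to be compared. SLC3A2 was at 0.316 from SLC7A5, rank 6037 of 10736 genes. This distance was set largely by the replicate 1 libraries, since it was 0.275 without that of shCont, 0.207 (rank 2905) without that of shp16 and 0.141 (rank 1580) without both, alternatives chosen after seeing the data. Nearest to SLC3A2 were CHST12 (0.0472), COX7C (0.0565) and NOP56 (0.0605).

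Among 56 other amino acid transporters, 30 passed the filter on low counts. In shp16 against shCont 4 rose and 3 fell, where 7.23% and 7.59% of all genes were called higher and lower, and their median log2 fold change was −0.10, against −0.02 for all genes tested. These counts were 5 and 6 without shCont replicate 1 (13.4% and 12.5% of all genes). Beside SLC7A8, the genes called with all libraries at a mean of at least 5 CPM included SLC25A13 (0.78, adjusted p = 0.00151), the mitochondrial aspartate-glutamate carrier citrin. SLC7A2 (0.73, adjusted p = 0.0425), the cationic amino acid importer CAT2 and so a relative of SLC7A1, also rose. So did SLC6A15 (0.50, adjusted p = 0.0359), a neutral amino acid importer. SLC7A2 was at 0.45 and SLC6A15 at 0.33 without shCont replicate 1, both still past the test (adjusted p = 0.00163 and 0.00492). SLC38A6 (−0.67, adjusted p = 0.0107) and SLC6A17 (−0.57, adjusted p = 0.0141) fell. The remaining gene that rose was SLC43A2, at a mean of 0.965 CPM, and it is named after its value was seen. In shp16+shATR against shp16, 3 rose and 1 fell, where 2.73% and 3.49% of all genes did: SLC6A17 (0.71, adjusted p = 0.00967), SLC6A6 (0.63, adjusted p = 0.0243), the taurine transporter, and PQLC2 (0.53, adjusted p = 0.0447), a lysosomal exporter of cationic amino acids, rose, and SLC25A22 (−0.65, adjusted p = 0.0177), a mitochondrial glutamate carrier, fell. Without shCont replicate 1, the counts for shp16+shATR against shp16 were 4 higher and 3 lower (8.94% and 11.0% of all genes). Against shCont the combined knockdown had 4 higher and 3 lower, where 10.9% and 12.7% of all genes were. Without shCont replicate 1 it had 6 higher and 6 lower (15.9% and 17.5% of all genes).

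The amino acid response list holds 22 genes that ATF4 and amino acid shortage are known to act on, such as asparagine synthetase (ASNS) and enzymes of serine synthesis, together with regulators of that response, and all 22 were tested. In shp16 against shCont 8 rose and none fell, where 7.23% of all genes were called higher and 7.59% lower, and the median log2 fold change was 0.27. Without shCont replicate 1, 11 were called higher and 1 lower, where 13.4% and 12.5% of all genes were. NUPR1 (0.65, adjusted p = 0.00156), TRIB3 (0.58, adjusted p = 0.00041) and PHGDH (0.43, adjusted p = 0.00411) were called higher only there. CEBPG (−0.32, adjusted p = 0.0327) was the gene called lower. All of these are named after their values were seen. Of the 8 that rose with all libraries, those with a mean of at least 5 CPM included VLDLR (0.60, adjusted p = 0.0114) and SESN2 (0.60, adjusted p = 0.0197), a leucine sensor upstream of mTORC1. The others were DDIT4 (0.51, adjusted p = 0.00732), an mTORC1 inhibitor, SHMT2 (0.50, adjusted p = 0.0183), the mitochondrial serine hydroxymethyltransferase, and ASNS (0.40, adjusted p = 0.0334). The remaining 3 of the 8, named after their values were seen, were CHAC1, STC2 and ATF3, at means of 1.99 to 2.41 CPM. ATF4 itself was at −0.05 (SE 0.23, adjusted p = 0.911), and at 0.11 without shCont replicate 1 (adjusted p = 0.772). Its shp16 libraries spread from 56.3 to 123 FPKM. In shp16+shATR against shp16 1 gene rose and 5 fell, where 2.73% and 3.49% of all genes did, with a median of −0.22. These counts were 3 and 9 without shCont replicate 1 (8.94% and 11.0% of all genes). With all libraries, MTHFD2 (−0.67, adjusted p = 0.00496), a mitochondrial folate enzyme, SESN2 (−0.57, adjusted p = 0.0436) and MYC (−0.45, adjusted p = 0.0431) fell with CHAC1 and ATF3. DDIT4 (0.47, adjusted p = 0.0224) rose. Against shCont, 5 were higher and 4 lower in the combined knockdown, where 10.9% and 12.7% of all genes were. Without shCont replicate 1 these counts were 7 and 4 (15.9% and 17.5% of all genes). Both comparisons with shp16 share its libraries, and the list was chosen with earlier results of these data known.

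**Figure D5:**
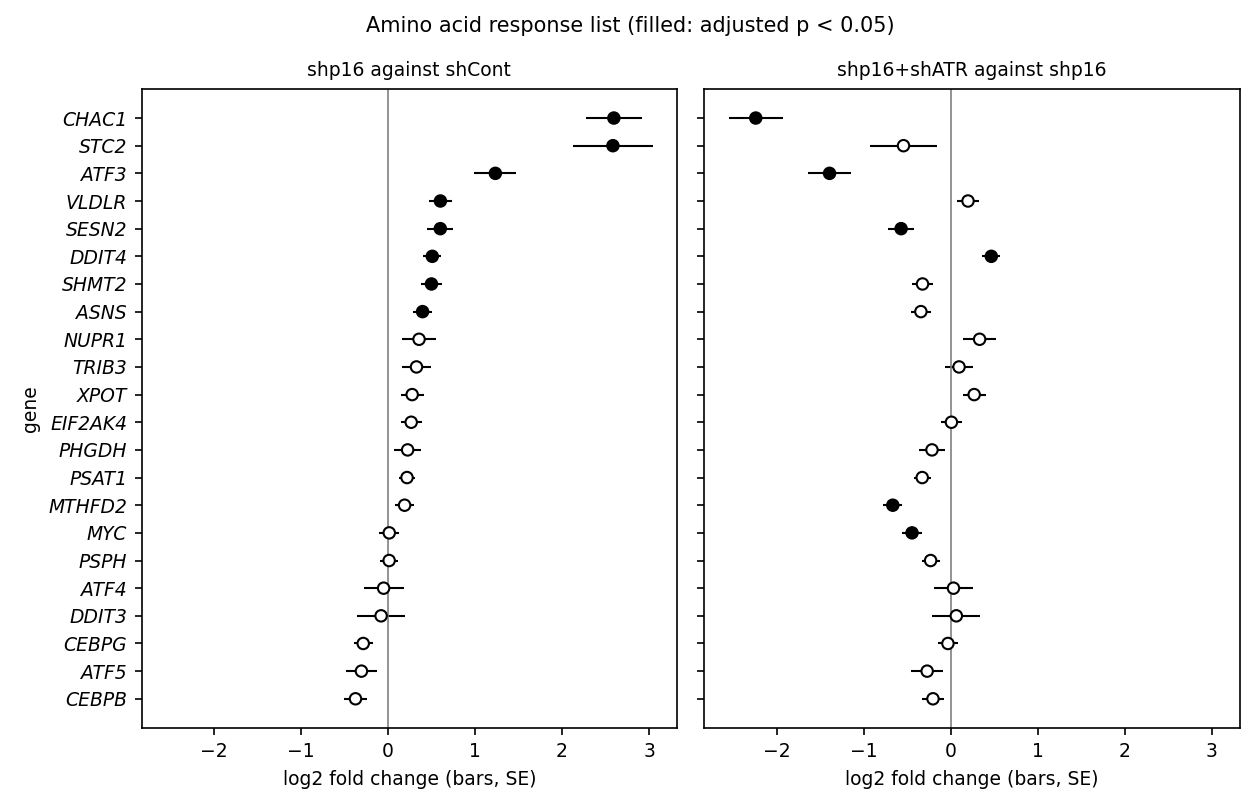
Log2 fold changes with standard errors of the 22 genes of the amino acid response list for p16 knockdown (shp16 against shCont) and for added ATR knockdown (shp16+shATR against shp16), in the order of the first panel; filled points have an adjusted p under 0.05. In the first panel 8 genes are filled on the right of 0, and 5 on the left and 1, DDIT4, on the right in the second.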

How the data were processed

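Libraries were prepared and sequenced by Novogene with a NEBNext Ultra II kit, and the submitters' processing notes name STAR 2.6.1, DESeq2 and GRCh38. The gene coordinates in the tables are those of GRCh37, since chromosome 1 reaches 249231242 there and 248937043 in GENCODE annotation of GRCh38. The counting program and strand setting are not given in the sources used here. The authors deposited raw counts per gene, without normalization, and FPKM values, which equal the counts scaled by gene length and library total within a relative difference of 4.22e-07. The 3 shp16+shATR count columns share 1 name and are called libraries a, b and c; they match FPKM replicates 1, 2 and 3.

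From the counts, edgeR 4.0.16 in R 4.3.3 gave TMM-normalized CPM and, after filterByExpr, a quasi-likelihood test of 15776 genes with 1 coefficient per group over all 9 libraries. Calls are at a Benjamini-Hochberg adjusted p of 0.05. Ratios of FPKM were tested with scipy 1.17.1. Alternatives were upper-quartile scaling, library size only, DESeq2 1.42.0, other count filters, fits of only the groups compared, limma 3.58.1 on log2(FPKM + 1) or log2(FPKM + 0.1), a replicate block, stricter thresholds and each library left out. The test was also run on simulated counts. They were drawn without a deviating library, so that run cannot speak to calls that depend on 1 library.

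The members and lists were chosen with earlier results of these data known. All members were named in every comparison. Of the 2 lists, genes called with a mean of at least 5 CPM were named, at most 8 transporters and 6 response genes per comparison, along with the 3 nearest patterns to SLC7A5 and to SLC3A2.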

Additional observations from a re-analysis of the deposited data

How the results depend on the processing

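Of the alternatives for single members, most kept the direction and the side of the threshold. Those that turned the sign concerned values that did not pass the test with all 9 libraries. Among these, SLC3A2 in shp16+shATR against shp16 was called lower without both replicate 1 libraries (adjusted p = 0.0404). In shp16 against shCont, leaving out 1 library at a time gave SLC36A1 values from −0.032 to 0.33 and SLC3A2 values from −0.40 to −0.07, and without both replicate 1 libraries of shCont and shp16 these were −0.041 for SLC36A1 and 0.038 for SLC3A2. In shp16+shATR against shp16, the ranges were −0.035 to 0.15 for SLC1A5, −0.13 to 0.056 for SLC1A4 and −0.15 to 0.039 for SLC3A2. Upper-quartile scaling put SLC3A2 there at 0.0012, and leaving out both replicate 1 libraries put SLC1A4 at 0.05. In shp16+shATR against shCont, the ranges were −0.13 to 0.0022 for SLC7A5 and −0.15 to 0.15 for SLC7A6, and SLC7A6 was at −0.15 without both. Leaving out 1 library at a time gave 1344 to 4192 genes called in shp16 against shCont (2339 with all), 292 to 3223 in shp16+shATR against shp16 (981) and 2354 to 5395 in shp16+shATR against shCont (3724), with 0 to 4, 0 to 2 and 1 to 3 members called (2, 0 and 1 with all). The members' median in shp16 against shCont lay between −0.032 and 0.32. Without both replicate 1 libraries, a setting chosen after seeing the data, 5264, 4304 and 7130 genes and 6, 4 and 4 members were called.

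At an adjusted p of 0.01, 994, 309 and 1974 genes were called, and where 1 was required as the smallest log2 fold change, 779, 165 and 1178; members called were 0 under both in the comparisons with shCont. A fit of only the groups compared called 1186 and 2878 genes for shp16 against shCont and for the comparison with shp16, and 0, 2 and 2 members. Limma called 653 genes with a pseudocount of 1 and 638 with 0.1 for shp16+shATR against shp16, and 1, 1 and 2 members under both. In the 2 comparisons of shp16+shATR, DESeq2, library size only and no filter each called 1 and 2 members, and upper-quartile scaling called 2 against shCont. Upper-quartile scaling moved the share of calls that were higher from 48.8% to 38.5% for shp16 against shCont and from 43.8% to 54.2% for shp16+shATR against shp16. The causes were not tested.

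Same-numbered libraries did not deviate together (correlations −0.337 to 0.319 over 9 pairs, 2 of them over 0.1), so the replicate numbers were not taken as a pairing. With the replicate block, limma called 1046, 327 and 2436 genes and edgeR 423 in shp16 against shCont, both with 0 members called there. Summing 2 libraries was planned for pairs that agree within sampling noise and was not run, because no pair did (lowest chi-square per gene 1.94). That lowest value was for shp16 replicates 2 and 3. The pairs of shp16 replicate 1 with these were at 37.9 and 37.2. Those of shCont replicate 1 with the other controls were at 68.5 and 83.4.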
